A study of Saccharomyces cerevisiae with 24 samples.

Results

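Aminoacyl-tRNA synthetases attach amino acids to their tRNAs, and the genes described here encode these enzymes in *Saccharomyces cerevisiae* together with *ARC1*, a tRNA-binding cofactor that is not itself a synthetase. A gene was a member if its array name or its current standard name was on the list of 33 names, and each of the 33 had 1 spot among the 6307 ORFs on the array. The list holds 19 genes for cytosolic enzymes, 13 for mitochondrial enzymes and *ARC1*. The study hybridized RNA from 2 cultures to each of 24 two-colour arrays, as 12 comparisons with 2 dye-swapped arrays each. In 7 comparisons a *med20Δ* strain was set against the wild-type strain BY4741 in the same condition. In 2 others the culture with rapamycin was set against the one without it, in *med20Δ* and in the wild-type strain. The last 3 set *med16Δ*, *med31Δ* and *cycCΔ* strains against wild-type after rapamycin. Med20, Med16, Med31 and cyclin C are subunits of Mediator, the complex that links gene-specific regulators to RNA polymerase II, and belong to its head, tail, middle and Cdk modules.

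Each deletion replaced 1 gene with a kanamycin-resistance marker in the BY4741 background, which all strains share and which requires histidine, leucine, methionine and uracil. Cultures grew in YPD, a rich medium, at 30 °C to an absorbance of about 0.2 before treatment. Rapamycin, an inhibitor of the TOR kinase, was given at 0.2 µg/ml for 1 h. Chlorpromazine, a membrane-active drug, was given for 1 h at a dose that the sample labels give as 250 mM and the study's methods in micromolar units. Tunicamycin, which blocks protein N-glycosylation, was given at 2.5 µg/ml for 90 min and hydrogen peroxide at 0.32 mM for 30 min. The heat-treated cells were moved to 39 °C for 20 min after growth at 29 °C, and the diauxic cultures were started at an OD600 of 0.01 and grown for 48 h. The sources used here do not say whether the 2 arrays of a comparison held RNA of separate cultures.

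A synthetase recognises 1 amino acid and charges the tRNAs that carry it to the ribosome. Yeast makes 1 set of enzymes for the cytosol and another for the mitochondrion, where a separate ribosome translates the few mitochondrially encoded proteins, and both sets come from nuclear genes. For most amino acids each compartment has its own gene, but *ALA1*, *GRS1*, *HTS1* and *VAS1* encode both the cytosolic and the mitochondrial enzyme. *FRS1* and *FRS2* encode the 2 subunits of the cytosolic phenylalanyl enzyme. Arc1 binds the methionyl enzyme Mes1 and the glutamyl enzyme Gus1 in the cytosol. Rapamycin is known for shutting down the genes of the translation apparatus, among them those for cytosolic ribosomal proteins.

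All values below are log2 ratios of the first-named culture over the second, given as the mean of the 2 arrays, followed in brackets by both arrays. The first call rule asked for a mean of at least 1 in size, which is 2-fold. A second rule asked for 1.5-fold on the mean and the same direction on both arrays. Because each pair of arrays was taken as 1 replicate, these counts carry no test. Where an adjusted p is given, it comes from limma with each array as a replicate and Benjamini-Hochberg adjustment over all genes. It rests on the spread of each gene between paired arrays, pooled over all comparisons in the fit, which may be technical. It is thus not set by the 2 arrays in brackets alone. The fit had no term for the dye, so a gene whose ratio followed the dye in some comparisons has a larger spread in all.

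Of the 33 members, 30 to 32 were measured on both arrays of each comparison. *MSM1*, for the mitochondrial methionyl enzyme, was measured only with *med16Δ*, *med31Δ* and *cycCΔ*. *ALA1* (alanyl) was not measured in untreated cells or with *cycCΔ*, *DIA4* (a probable mitochondrial seryl enzyme) was measured in 6 comparisons, and *MSF1* (mitochondrial phenylalanyl) in 8. The signal of *HTS1*, the histidyl enzyme gene, lay at the level of the spots without a gene name in 2 to 4 of the 4 channels of each rapamycin comparison, so its ratios near 0 there are not a measurement. In untreated cells 83.3% of the channels of *GRS1*, *HTS1* and *VAS1* together lay above those spots, against 100% for the other cytosolic genes. The deletion strains were checked by their own genes. *MED20* read lower in *med20Δ* than in wild-type on both arrays of all 7 conditions, with means of -0.26 to -0.89. In single conditions 27.9% (diauxic) to 34.2% (tunicamycin) of all genes were lower on both arrays, and the share over all 7 was not computed. Means of this size do not by themselves show that the gene was absent. *MED16* read -0.67 in *med16Δ*, *MED31* -1.05 in *med31Δ* and *SSN8*, the cyclin C gene, -0.88 in *cycCΔ*. The spread between the 2 arrays of a comparison had an SD of 0.21 to 0.42 over all genes and 0.18 to 0.47 over the members.

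**Figure D1:**
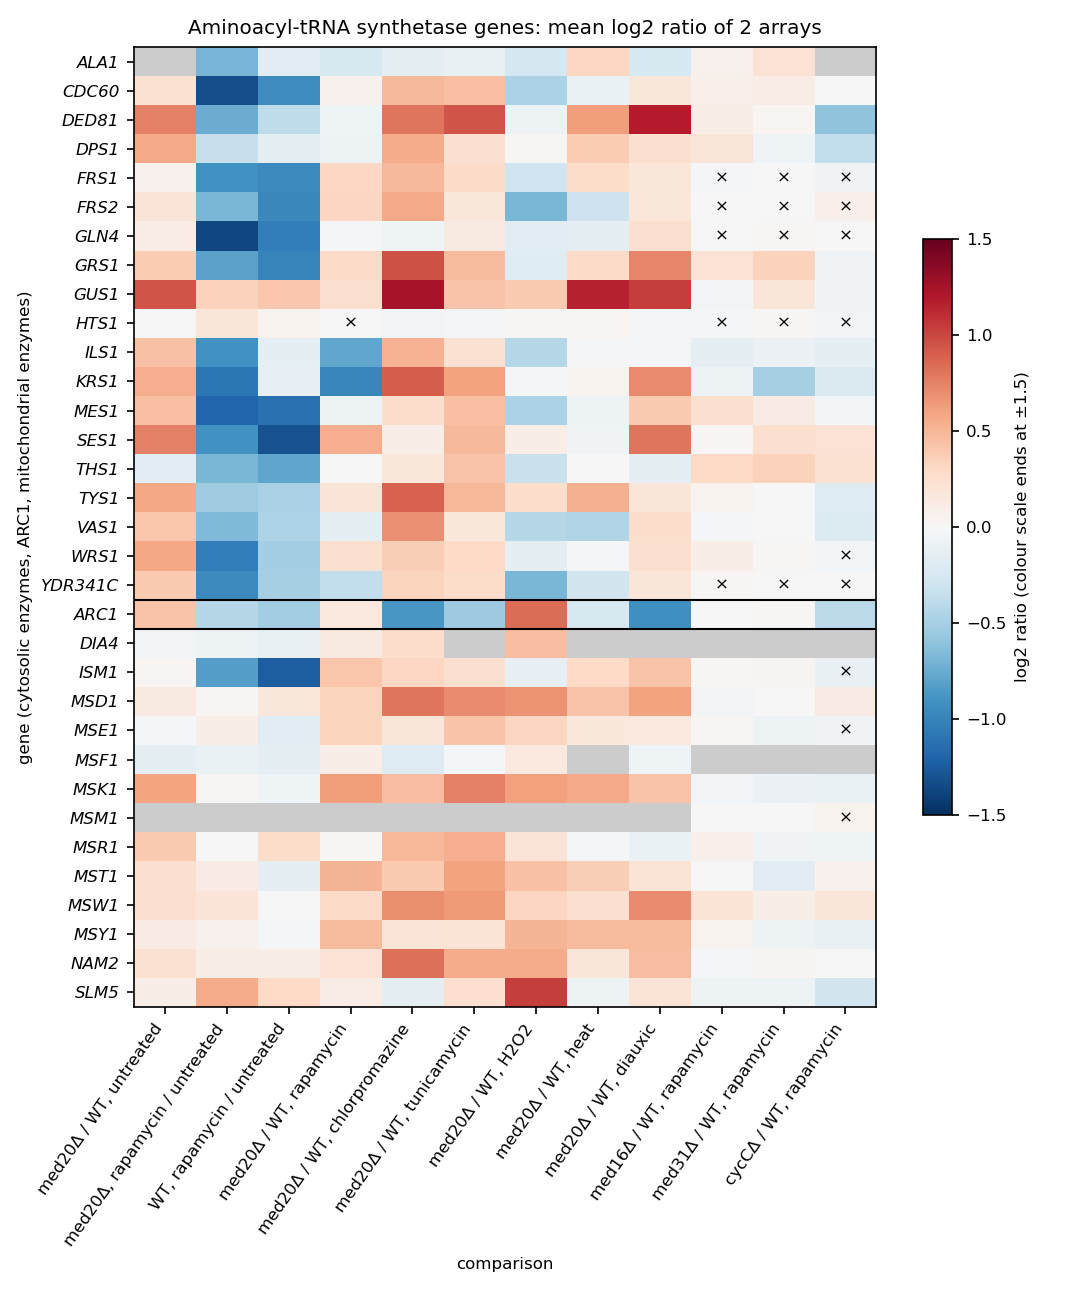
Mean log2 ratio of the 33 members (rows: cytosolic enzymes, *ARC1*, mitochondrial enzymes) in the 12 comparisons (columns), each the mean of 2 arrays. Red is higher and blue lower in the first-named culture, grey was not measured on both arrays, and a cross marks members at the level of unnamed spots in all 4 channels. The cytosolic genes are mostly blue in both rapamycin responses and the mitochondrial genes mostly red in *med20Δ* against wild-type.

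The first question was how rapamycin changed these genes in each strain. Most cytosolic synthetase genes were lower after rapamycin in both strains, and most mitochondrial ones stayed near 0. The median of the cytosolic genes was -0.80 (-0.83 and -0.81) in *med20Δ* and -0.50 (-0.51 and -0.64) in wild-type, over 19 genes each. The median of the mitochondrial genes was 0.05 (0.12 and -0.01) in *med20Δ* and -0.05 (0.03 and -0.09) in wild-type, over 12 genes each. The median of all genes was 0.00 in both responses. For scale, the cytosolic ribosomal protein genes had medians of -1.17 in *med20Δ* (n = 129) and -3.09 in wild-type (n = 128), and the mitochondrial ribosomal protein genes 0.02 in *med20Δ* and -0.15 in wild-type (n = 42 each).

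In *med20Δ*, 5 members were at least 2-fold lower after rapamycin, all of them cytosolic, and none was 2-fold higher, where 5.57% of all genes were 2-fold lower and 3.19% higher. *GLN4*, the glutaminyl enzyme gene, was lowest at -1.37 (-1.35 and -1.38). *CDC60* (leucyl) was at -1.34 (-1.35 and -1.32), *MES1* (methionyl) at -1.19 (-1.32 and -1.06), *KRS1* (lysyl) at -1.09 (-1.12 and -1.06) and *WRS1* (tryptophanyl) at -1.03 (-1.13 and -0.93). Both arrays lay close together for each of these genes. The count of 5 was 9 with subtracted background and 8 without the second array. Just short of 2-fold were *YDR341C* (arginyl) at -0.96 and *ILS1* (isoleucyl), *FRS1* and *SES1* (seryl) at -0.91 each. By the second rule 15 of the 19 cytosolic genes were lower, against 12.2% of all genes and 19.3% of the genes within the interquartile range of the cytosolic members' intensities. The exceptions were *DPS1* (aspartyl, -0.34), *TYS1* (tyrosyl, -0.54), *HTS1* and *GUS1* (glutamyl).

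In wild-type, 5 members were at least 2-fold lower after rapamycin and none 2-fold higher, where 6.2% of all genes were 2-fold lower and 3.94% higher. *SES1* was lowest at -1.31 (-1.06 and -1.56), followed by *MES1* at -1.12 (-1.14 and -1.10), *GLN4* at -1.04 (-1.08 and -0.999) and *GRS1*, for the glycyl enzyme of both compartments, at -1.002 (-0.85 and -1.16). The fifth was a mitochondrial gene, *ISM1* (isoleucyl), at -1.24 (-1.09 and -1.39). The count of 5 was 8 with subtracted background or median centring, 9 with the authors' ratios and 3 where both arrays had to pass 2-fold. *FRS2* at -0.96, *FRS1* at -0.95 and *CDC60* at -0.94 were just short of 2-fold. By the second rule 8 of 19 cytosolic genes were lower, against 12.1% of all genes and 16.5% of genes of like intensity. The genes just outside that rule were *WRS1* (-0.51), *YDR341C* (-0.50) and *TYS1* (-0.49). Over the 32 members measured, limma called 16 lower and 1 higher in *med20Δ* (background 14.2% and 12.1%), and 14 lower and none higher in wild-type (background 15.3% and 13.8%).

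*GUS1* went against the other cytosolic genes in both strains. It read 0.25 and 0.45 on the arrays of *med20Δ* and 0.63 and 0.18 on those of wild-type, and neither mean passed limma's test (adjusted p = 0.14 in *med20Δ* and 0.082 in wild-type). Among mitochondrial genes *SLM5* (asparaginyl) was the highest, at 0.56 (0.34 and 0.78) in *med20Δ* and 0.30 (0.16 and 0.43) in wild-type, with limma adjusted p of 0.0093 in *med20Δ* and 0.15 in wild-type. *ISM1* stood apart from the other mitochondrial genes in both strains. It was at -0.83 (-1.04 and -0.62) in *med20Δ*, and the next lowest mitochondrial mean was *MSF1* at -0.10 in that strain and *MSE1* (glutamyl) at -0.16 in wild-type. *ARC1* was at -0.43 (-0.39 and -0.47) in *med20Δ* and -0.53 (-0.38 and -0.67) in wild-type, smaller changes than those of its partner gene *MES1*.

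The 2 strains differed most in *KRS1* and *ILS1*, which hardly responded in wild-type. *KRS1* read -1.12 and -1.06 on the arrays of *med20Δ*, against 0.09 and -0.34 on those of wild-type. *ILS1* read -0.89 and -0.93 in *med20Δ*, against -0.03 and -0.27 in wild-type. The arrays of the 2 strains do not overlap for either gene. Such a separation with *med20Δ* lower was seen for 9 of 19 cytosolic genes (background 23.5%), namely *ALA1*, *CDC60*, *DED81* (asparaginyl), *DPS1*, *GLN4*, *ILS1*, *KRS1*, *WRS1* and *YDR341C*. The reverse was seen for 4, *FRS2*, *GRS1*, *SES1* and *THS1* (threonyl; background 25.3%). When limma tested the difference between the responses, none of 31 members passed, where 2.33% of all genes did, and 4 members had an unadjusted p below 0.05. The difference of *KRS1* was -0.96 (adjusted p = 0.74) and that of *ILS1* -0.76 (adjusted p = 0.15). Without the 6 arrays of the other deletion strains, on which *KRS1* had a large dye-bound ratio, the values were 0.073 for *KRS1* and 0.25 for *ILS1*, again with no member called (background 1.72%) and 3 at an unadjusted p below 0.05.

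The direct hybridization of *med20Δ* against wild-type, both with rapamycin, compared the 2 strains at the end point. Unlike the difference between the responses, this ratio also holds the difference between the untreated strains. No member was 2-fold changed there, where 2.11% of all genes were 2-fold higher and 1.81% lower. *KRS1* was the lowest member at -0.98 (-1.21 and -0.75), and *ILS1* followed at -0.78 (-0.96 and -0.60). The net intensities of *KRS1* were 241 in *med20Δ* against 842 in wild-type on one array and 1266 against 1494 on the other, before the loess step. *YDR341C* was the next, at -0.37 (-0.47 and -0.28). *KRS1* and *ILS1* were the only members lower by the second rule (background 5.88%). Limma called *ILS1* alone lower (adjusted p = 0.0077, background 6.09%), and gave *KRS1* an adjusted p of 0.37 over all 24 arrays and 0.0029 without the 6 arrays of the other deletion strains.

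At the high end of the direct comparison stood *MSK1*, the mitochondrial lysyl enzyme gene, at 0.62 (0.80 and 0.44), *SES1* at 0.55 (0.30 and 0.79) and *MST1* (mitochondrial threonyl) at 0.51 (0.26 and 0.77). The lysyl pair lay at opposite ends of the list. *MSK1* was the only member higher by the second rule (background 4.72%), and limma called no member higher (background 4.5%). The cytosolic median was -0.01 (0.01 and 0.02), against a median of 1.42 for the 129 cytosolic ribosomal protein genes, which were higher in *med20Δ*. The mitochondrial median was 0.31 (0.15 and 0.45), and 10 of 12 mitochondrial genes were higher on both arrays (background 33.1%), beside a median of 0.47 for mitochondrial ribosomal protein genes.

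The direct ratio can be set beside the one derived from the other 3 comparisons, the untreated ratio plus the response of *med20Δ* minus that of wild-type. For *KRS1* the derived value was -0.43 and for *ILS1* -0.32, the same sign as the direct ratios but smaller in size. Over 18 cytosolic genes the derived value exceeded the direct one by a median of 0.32, over 12 mitochondrial genes by 0.00 and over all genes by 0.04. The 4 comparisons thus do not close for the cytosolic genes. A gap of 0.48 was found for the cytosolic ribosomal protein genes (n = 127).

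**Figure D2:**
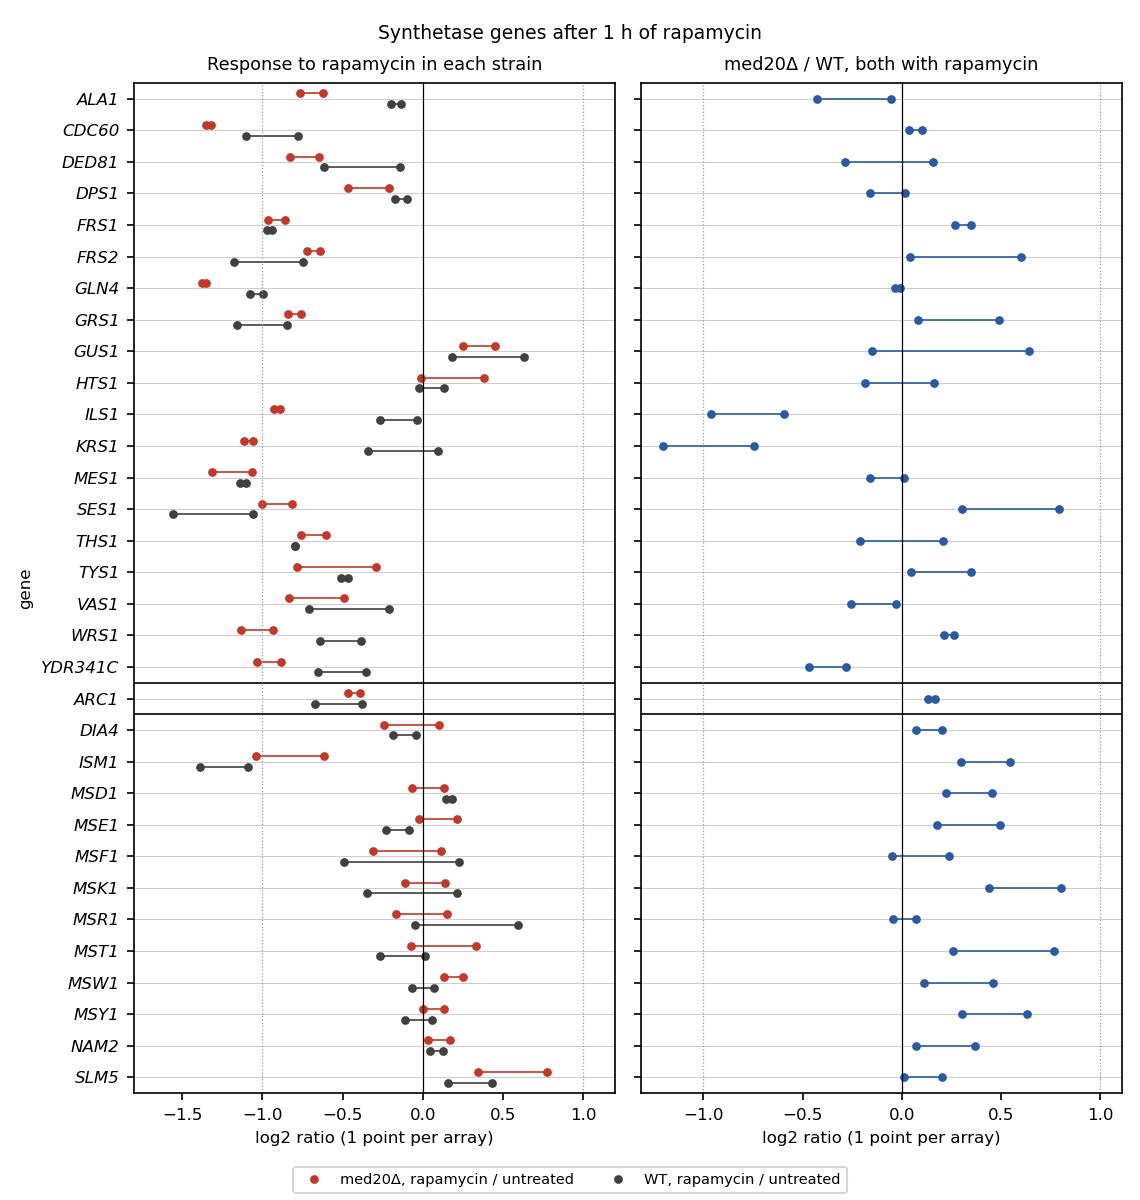
Log2 ratios of the members on each array (points joined by a line) for rapamycin against untreated in *med20Δ* and wild-type (left) and for *med20Δ* against wild-type with rapamycin (right). Dotted lines mark 2-fold. *KRS1* and *ILS1* lie near or beyond -0.9 in *med20Δ* and near 0 in wild-type, and they are the lowest members on the right.

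Cytosolic and mitochondrial enzymes for the same amino acid were compared next, as the difference of their log2 ratios on each array. The pairs re-use the member values behind the cytosolic and mitochondrial medians, so they are not separate evidence for the difference between these medians. The share of other gene pairs that separate on both arrays was not computed, so the pair counts here and below have no background. After rapamycin in *med20Δ* the cytosolic gene was lower than its mitochondrial counterpart on both arrays in 10 of 12 pairs, with a median difference of -0.82. In wild-type this held in 9 of 12, with a median difference of -0.59. The widest gap in *med20Δ* was that of the leucyl pair *CDC60* and *NAM2*, at -1.44 (-1.38 and -1.49). In wild-type it was that of the seryl pair *SES1* and *DIA4*, at -1.19 (-1.01 and -1.37).

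The isoleucyl pair ran the other way in wild-type, where *ILS1* exceeded *ISM1* by 1.09 (1.06 and 1.12). In *med20Δ* both genes were lower and the difference was -0.08, with opposite signs on the 2 arrays. The glutamyl pair was reversed in both strains. *GUS1* exceeded *MSE1* by 0.25 (0.03 and 0.47) in *med20Δ*, where 1 array was close to 0, and by 0.56 (0.71 and 0.41) in wild-type. The lysyl pair *KRS1* and *MSK1* differed by -1.10 (-1.01 and -1.20) in *med20Δ* and by -0.06 in wild-type.

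Spot intensity moved with this contrast. The mitochondrial members were dimmer, with a median average log2 intensity of 7.47 in the *med20Δ* comparison and 7.08 in the wild-type one, against 9.57 and 8.99 for the cytosolic members. The background correction used here draws ratios of dim spots toward 0. In *med20Δ*, 4.68% of the genes within the interquartile range of the mitochondrial members' intensities were 2-fold lower, and 6.84% of those within that of the cytosolic members. In wild-type the shares were 1.62% and 8.31%. The part of intensity in the contrast was not tested. The difference of the medians kept its sign under each background correction and scaling tried in both strains, between -0.96 and -0.83 in *med20Δ* and between -0.62 and -0.43 in wild-type.

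**Figure D3:**
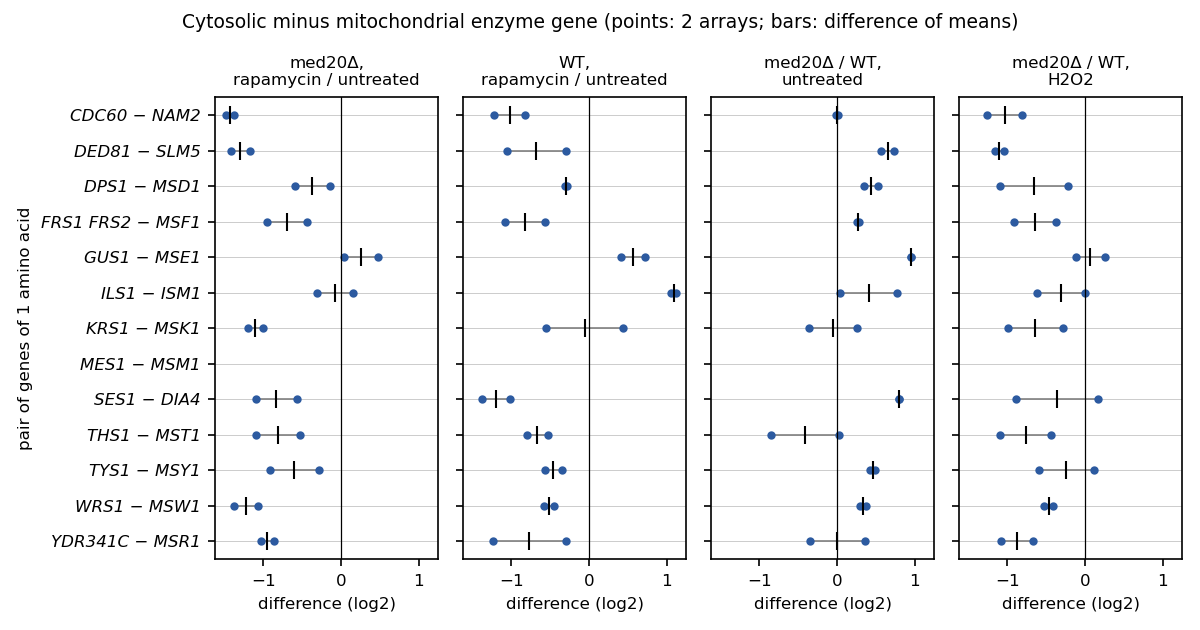
Difference in log2 ratio between the cytosolic and the mitochondrial gene of 13 amino acids (rows, *MES1* and *MSM1* not measured here) in 4 comparisons (panels, shared axis); points are the 2 arrays and bars the difference of means. After rapamycin most pairs lie left of 0 in both strains, as in H2O2 for *med20Δ* against wild-type, and in untreated cells most lie right of it. The isoleucyl pair lies right of 0 by 1.09 in wild-type with rapamycin.

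In untreated cells most cytosolic synthetase genes were higher in *med20Δ* than in wild-type, without reaching 2-fold. The cytosolic median was 0.43 (0.25 and 0.63, n = 18), and 16 of 18 genes were higher on both arrays (background 32.9%). The mitochondrial median was 0.13 (0.02 and 0.23, n = 12), with 7 of 12 higher and 2 lower on both arrays (background 32.2% lower). *GUS1* was highest at 0.94 (0.87 and 1.01), followed by *SES1* at 0.76 (0.74 and 0.77) and *DED81* at 0.75 (0.60 and 0.90). The lowest with the same sign on both arrays were *MSF1* at -0.14, *DIA4* at -0.04 and *FRS1* at 0.06. No member was 2-fold changed, as were 0.928% of all genes. Limma called *GUS1*, *DED81*, *DPS1*, *TYS1* and *WRS1* higher, 5 of 32 members, against 1.49% of all genes. In 8 of 12 amino-acid pairs, for which no background was computed, the cytosolic gene was the higher one on both arrays and in none the lower.

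**Figure D4:**
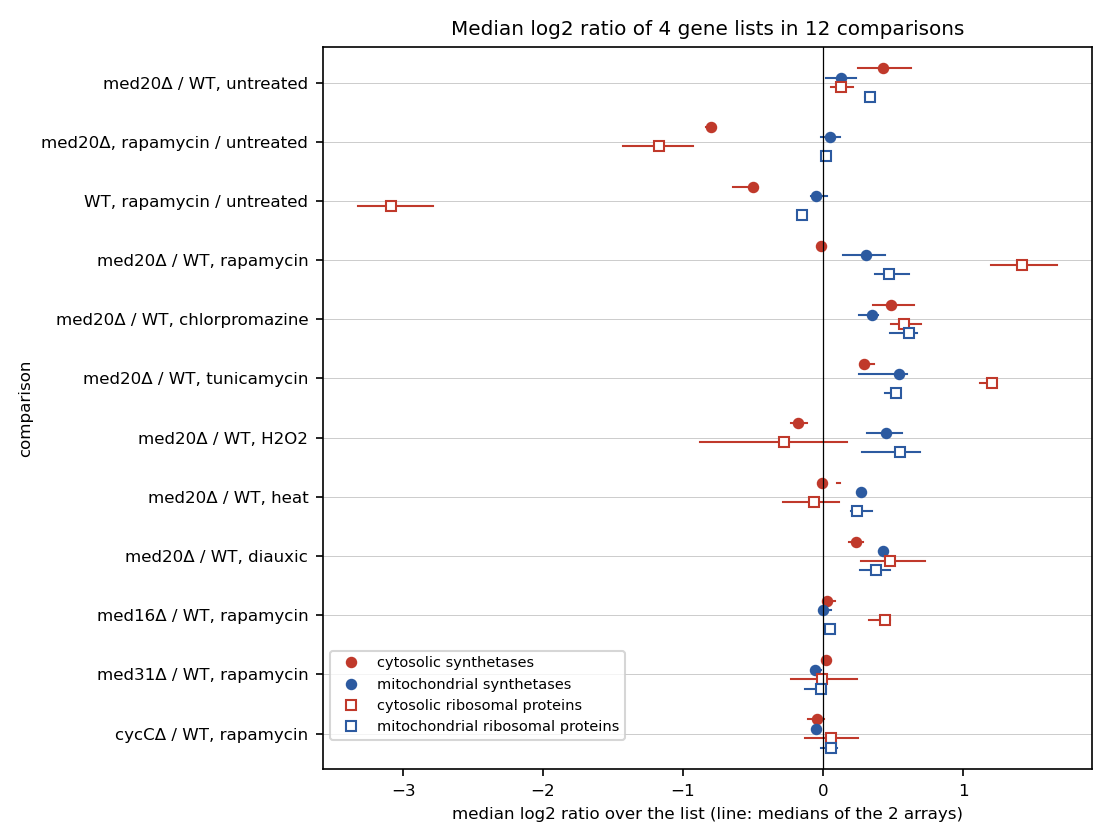
Median log2 ratio of cytosolic and mitochondrial synthetase genes (filled circles) and ribosomal protein genes (open squares) in the 12 comparisons (rows), with a line between the medians of the 2 arrays, which can lie to 1 side of the median of the means. The cytosolic synthetase medians after rapamycin are -0.80 in *med20Δ* and -0.50 in wild-type, against -1.17 and -3.09 for the cytosolic ribosomal proteins.

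The study also set *med20Δ* against wild-type in 5 other conditions known to repress ribosomal protein genes, and the median of the mitochondrial set was above 0 in each. It was 0.35 (0.26 and 0.39) with chlorpromazine, 0.54 (0.60 and 0.26) with tunicamycin, 0.45 (0.32 and 0.57) with H2O2, 0.27 (0.26 and 0.26) after heat and 0.43 (0.40 and 0.46) in diauxic cultures. With tunicamycin the median is thus 0.26 without the first array. In diauxic cultures 5 of 11 mitochondrial genes were higher on both arrays (background 28.1%) and 6 had arrays of opposite sign, among them *MSK1*, the median gene, at 1.16 and -0.30. In the same order the cytosolic median was 0.49 (0.65 and 0.36), 0.29 (0.37 and 0.29), -0.18 (-0.11 and -0.23), -0.01 (0.10 and 0.12) and 0.24 (0.18 and 0.28). After heat the cytosolic medians of both arrays were thus above 0, unlike the median of the means. The mitochondrial ribosomal protein genes had medians of 0.61, 0.53, 0.55, 0.24 and 0.38, again in that order. The 7 comparisons share no arrays but come from the same 2 strains. The mitochondrial genes *MSW1* (tryptophanyl), *MSY1* (tyrosyl) and *NAM2* were higher in *med20Δ* on both arrays in all 7 conditions, and so was the cytosolic *TYS1*. These were 4 of the 29 members measured in all 7, where 2% of all genes met that rule. *MSD1* (aspartyl), *MSK1* and *MST1* were higher in 6 of 7, as were the cytosolic *GUS1* and *GRS1* (5 of 29, background 3.63%). The means ran from 0.24 to 0.71 for *MSW1*, from 0.12 to 0.50 for *MSY1*, from 0.18 to 0.83 for *NAM2* and from 0.18 to 0.89 for *TYS1*.

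In the 10 comparisons of a deletion strain with wild-type, 3 members reached 2-fold in at least 1, and all 3 were higher in *med20Δ*. The share of all genes that reached 2-fold in at least 1 of the 10 was not computed. In single comparisons it ran from 0.236% (*med16Δ*) to 4.36% (H2O2) in either direction, so the count is not read as low or high. The count was 8 with subtracted background, 9 with the authors' ratios, 7 without the first array of each comparison and 11 without the second. *GUS1* reached 2-fold with chlorpromazine at 1.23 (1.15 and 1.31), after heat at 1.15 (0.92 and 1.38) and in diauxic cultures at 1.03 (1.16 and 0.91). It was at 0.42 with tunicamycin and 0.39 with H2O2, and its 2 arrays disagreed with rapamycin (-0.15 and 0.64). *DED81* was 2-fold higher in diauxic cultures at 1.17 (1.26 and 1.08). *SLM5*, its mitochondrial counterpart, was 2-fold higher with H2O2 at 1.03 (1.05 and 1.02). The share of all genes 2-fold higher was 1.14% with chlorpromazine, 2.83% with H2O2, 0.823% after heat and 0.892% in diauxic cultures.

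The 2 asparaginyl genes did not move together. *DED81* was also higher with tunicamycin at 0.94 (1.02 and 0.86), with chlorpromazine at 0.81 (0.88 and 0.73) and after heat at 0.62 (0.45 and 0.79). With H2O2 and with rapamycin it was at -0.07 each. *SLM5* was at most 0.25 in the 6 conditions other than H2O2, and below 0 with chlorpromazine (-0.13, arrays of opposite sign) and after heat (-0.07, likewise). Limma gave *DED81* adjusted p of 0.00057 with tunicamycin and 3.5e-05 in diauxic cultures, and *SLM5* one of 0.00013 with H2O2.

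The mean of *ARC1* had the widest range over the 7 conditions after that of *KRS1*, and its sign changed. It was lower in *med20Δ* with chlorpromazine at -0.87 (-1.03 and -0.71), in diauxic cultures at -0.92 (-1.33 and -0.51), with tunicamycin at -0.54 (-0.79 and -0.30) and after heat at -0.24 (-0.37 and -0.11). It was higher with H2O2 at 0.84 (0.44 and 1.24), in untreated cells at 0.43 (0.47 and 0.38) and with rapamycin at 0.15 (0.13 and 0.17). Its 2 arrays had the same sign in all 7 conditions. That also held for *CDC60*, *GRS1*, *YDR341C*, *TYS1*, *MSW1*, *MSY1* and *NAM2*, and *CDC60*, *GRS1* and *YDR341C* changed sign too. The share of all genes with this trait was not computed. *GUS1*, the gene of a partner of Arc1, was higher in each of the 4 conditions in which *ARC1* was lower. But *GUS1* was also higher in untreated cells (0.94) and with H2O2 (0.39), where *ARC1* was higher too. The opposite signs thus came from *ARC1* alone changing sign. *MES1*, the other partner, read 0.68 and 0.23 with tunicamycin, but its arrays disagreed with chlorpromazine (0.91 and -0.38), after heat and in diauxic cultures, and with H2O2 it was lower (-0.11 and -0.84). Limma gave *ARC1* adjusted p of 0.0056 with chlorpromazine, 0.0041 in diauxic cultures and 0.0053 with H2O2, and 0.11 with tunicamycin.

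*KRS1* and *ILS1*, the lowest members in *med20Δ* against wild-type with rapamycin, took other values in the other conditions. *KRS1* was at 0.54 (0.33 and 0.75) in untreated cells, 0.90 (0.77 and 1.04) with chlorpromazine, 0.61 (0.50 and 0.72) with tunicamycin and 0.70 (0.40 and 1.01) in diauxic cultures. With H2O2 and after heat it was within 0.06 of 0 and its arrays disagreed. *ILS1* was at 0.44 (0.19 and 0.70) in untreated cells, 0.52 (0.14 and 0.89) with chlorpromazine and 0.23 (0.24 and 0.22) with tunicamycin. With H2O2 it was lower, at -0.43 (-0.42 and -0.44). After heat it was at -0.01 and in diauxic cultures at -0.03, with arrays of opposite sign in both.

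**Figure D5:**
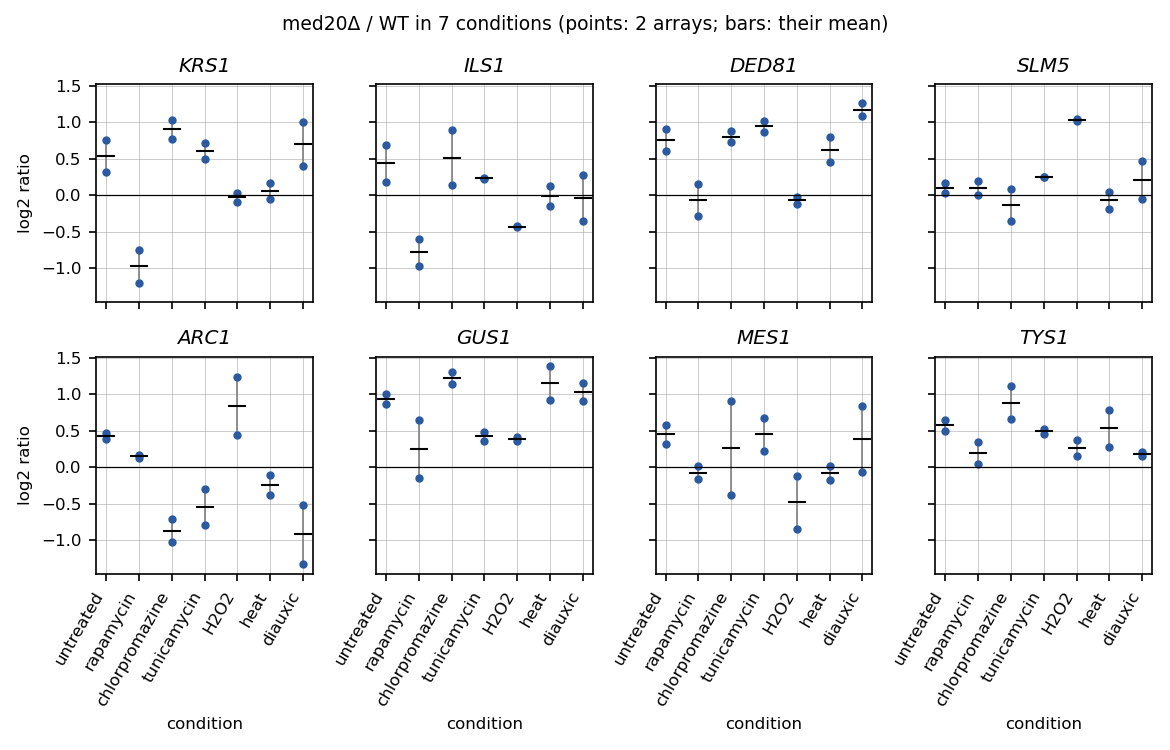
Log2 ratio of *med20Δ* over wild-type for 8 members (panels) in 7 conditions (x axis); points are the 2 arrays and bars their mean. *KRS1* and *ILS1* are lowest with rapamycin, at -0.98 and -0.78, and *SLM5* is high only with H2O2 (1.03). *ARC1* and *GUS1* lie on opposite sides of 0 with chlorpromazine, tunicamycin, heat and in diauxic cultures. In untreated cells and with H2O2 both lie above 0.

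H2O2 was the condition in which the 2 sets lay farthest apart between the strains. The cytosolic median was -0.18 (-0.11 and -0.23, n = 19) and the mitochondrial one 0.45 (0.32 and 0.57, n = 12). On both arrays 12 of 19 cytosolic genes were lower (background 29.6%) and 9 of 12 mitochondrial genes higher (background 31.5%). *FRS2* at -0.68 (-0.86 and -0.51) and *YDR341C* at -0.68 (-0.54 and -0.82) were the lowest members. In 8 of 12 amino-acid pairs, again without a background, the cytosolic gene was the lower one on both arrays and in none the higher. The asparaginyl pair was widest, at -1.11 (-1.16 and -1.05). The cytosolic ribosomal protein genes had medians of opposite sign on these 2 arrays (0.17 and -0.88).

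With tunicamycin no member reached 2-fold, as 2.6% of all genes did in either direction. *DED81* was highest, and *MSK1* at 0.75 (0.86 and 0.64) and *MSD1* at 0.71 (0.64 and 0.77) followed. Of the members with the same sign on both arrays *ARC1* was lowest, then *HTS1* at -0.03 (-0.01 and -0.06) and *GLN4* at 0.14 (0.19 and 0.09). Of the cytosolic genes 16 of 19 were higher on both arrays (background 33.8%), and of the mitochondrial genes 10 of 11. The difference between the 2 medians, -0.25, was 0.04 without the first array.

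*VAS1*, for the valyl enzyme of both compartments, gave no usable ratio in 4 conditions. Its arrays read 1.48 and -0.10 with chlorpromazine, 0.30 and -1.16 with H2O2, 0.35 and -1.26 after heat and 0.96 and -0.44 in diauxic cultures. In each case the ratio followed the dye, with a part bound to Cy5 over Cy3 of -0.70 to -0.81. In untreated cells, where that part was small, *VAS1* was at 0.41 (0.34 and 0.49). It stayed in the cytosolic medians and counts. Dye-bound parts were also large for *MSK1* (-0.73) and *MSR1* (mitochondrial arginyl, -0.70) in diauxic cultures and for *MES1* (-0.64) with chlorpromazine. With tunicamycin the part was -0.54 for *MSR1*, whose mean of 0.54 was the mitochondrial median there.

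The arrays of *med16Δ*, *med31Δ* and *cycCΔ* against wild-type, all with rapamycin, held few changes among the members. The cytosolic median was 0.03 in *med16Δ*, 0.02 in *med31Δ* and -0.04 in *cycCΔ*, and the mitochondrial one 0.00, -0.06 and -0.05. In the same order, 73.7%, 71.1% and 65.3% of the channels of cytosolic genes lay above the unnamed spots. For mitochondrial genes the shares were 95.5%, 95.5% and 59.1%, and for all genes 82.0%, 78.0% and 67.0%. These medians thus include ratios of spots without a clear signal. No member was 2-fold changed, where 0.236%, 0.843% and 0.641% of all genes were. Limma called none in *med16Δ* and *med31Δ* (background 0.447% and 2.68%), with 1 of 33 and 2 of 31 members at an unadjusted p below 0.05, and in *cycCΔ* only *DED81* (background 1.17% lower).

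*DED81* was lower in *cycCΔ* at -0.60 (-0.63 and -0.57, adjusted p = 0.025), followed by *ARC1* at -0.41 (-0.31 and -0.50) and *DPS1* at -0.36 (-0.40 and -0.33). The same gene was at 0.10 in *med16Δ* and 0.03 in *med31Δ*. *THS1* was among the highest members in all 3 strains, at 0.30 (0.33 and 0.27) in *med16Δ*, 0.35 (0.28 and 0.41) in *med31Δ* and 0.22 (0.17 and 0.28) in *cycCΔ*. *GRS1* was at 0.22 (0.15 and 0.29) in *med16Δ* and 0.35 (0.21 and 0.50) in *med31Δ*. *ILS1* was at -0.15 in *med16Δ*, -0.08 in *med31Δ* and -0.13 in *cycCΔ*, lower on both arrays each time without passing limma's test. In single comparisons 26.1% of all genes were lower on both arrays in *med16Δ*, 26.5% in *med31Δ* and 1547 of 5773 in *cycCΔ*. The share of all genes lower in all 3 strains, or higher in all 3 as *THS1* was, was not computed.

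Part of the list could not be read on these 6 arrays. *FRS1*, *FRS2*, *GLN4* and *YDR341C* were above the unnamed spots in every channel of the first 18 arrays and in none of the 6, as were 7.57% of all genes that were above on the first 18. The net intensities of *GLN4* there were -0.5 to 11.5, against 142 to 680 on the rapamycin arrays of *med20Δ* and wild-type. *KRS1* was bright there but followed the dye, reading 1.26 and -1.42 in *med16Δ*, 0.66 and -1.66 in *med31Δ* and 1.14 and -1.56 in *cycCΔ*. The ratio of *KRS1* in these strains is therefore open to dye bias, and the contrast of *med20Δ* with the other deletions at this gene cannot be read.

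Related genes of aminoacylation and of the sensing of uncharged tRNA, which are not members, were listed beside them. The cytosolic prolyl enzyme gene *YHR020W* was at -1.57 (-1.56 and -1.57) after rapamycin in *med20Δ* and -0.95 (-0.92 and -0.97) in wild-type. The cysteinyl enzyme gene *CRS1* was at -1.02 (-1.16 and -0.87) in *med20Δ* and -0.86 (-1.003 and -0.72) in wild-type. In *med20Δ* *YHR020W* was below every cytosolic member. *GRS2*, the paralogue of *GRS1*, was higher instead, at 0.23 (0.24 and 0.21) in *med20Δ* and 0.33 (0.13 and 0.53) in wild-type. *PET112*, *HER2* and *GTF1*, whose products make the mitochondrial glutaminyl-tRNA in place of a synthetase, were at 0.12, -0.32 and -0.48 in *med20Δ* and at -0.04, -0.30 and -0.31 in wild-type. The mitochondrial prolyl enzyme gene *AIM10* was at 0.29 in *med20Δ* and -0.11 in wild-type. Of the genes that sense uncharged tRNA, *GCN2*, the kinase, was at 0.28 (0.39 and 0.17) in *med20Δ* and 0.48 (0.45 and 0.51) in wild-type, while *GCN1* was at -0.63 (-0.63 and -0.63) in *med20Δ* and -0.38 (-0.47 and -0.29) in wild-type. *GCN20* was at -0.09 (-0.30 and 0.13) in *med20Δ* and -0.09 (-0.27 and 0.09) in wild-type. *GCN4*, the transcription factor of this pathway, was measured only with the other deletions. It was at -0.57 in *med16Δ*, -0.25 in *med31Δ* and -0.56 in *cycCΔ*, lower on both arrays of each. Of all genes 26.1% were lower on both arrays in *med16Δ*, 26.5% in *med31Δ* and 1547 of 5773 in *cycCΔ*.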

How the data were processed

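RNA of 2 cultures, labelled with Cy3 and Cy5, was hybridized to each of 24 arrays. The deposited scanner tables hold foreground and background intensity of each spot in both channels, and a log10 ratio normalized by the authors, which was used here only as an alternative. The genome build behind the array is not given in the sources used here. Spots flagged by the scanner software were left out (309 to 622 ORFs per array). Intensities were corrected by normexp (offset 50) and normalized by loess on ORF spots in limma 3.58.1 (R 4.3.3). Ratios were turned one way by the dyes in the labels, and the 2 dye-swapped arrays were averaged into 1 replicate, so the main counts carry no test.

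Median net intensity per channel ran from 84.5 to 1088.0, and 58.9% to 98.0% of ORFs lay above the 95th percentile of the spots without a gene name. With 2 arrays per comparison, their number limits the precision. limma over all arrays, with each array as a replicate, was an alternative, tested first on simulated data. Other alternatives changed the background correction, the scaling, the filter on dim spots, the call rule, and the arrays entered, and 1 used the replicate number as a block. The fits without the 6 arrays of *med16Δ*, *med31Δ* and *cycCΔ*, the tests between comparisons and the restriction to members above the unnamed spots were chosen after seeing the data.

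The members and lists were chosen with earlier results of these data known. Values of both arrays are given for members past 2-fold on the mean, and otherwise for the 3 highest and 3 lowest with 1 sign on both arrays, for the amino-acid pairs and for the deleted genes. Other values, such as those of *VAS1*, *ARC1*, *HTS1* and the related genes, were added after seeing the data. No sequence or promoter motif was analysed here.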

Additional observations from a re-analysis of the deposited data

Results flagged for a closer look

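For *KRS1* the ratio of *med20Δ* to wild-type lay on opposite sides of 0 on both arrays of 2 conditions in 3 cases. The ratio with rapamycin was 1.88 below that with chlorpromazine (difference -1.88), and the differences from tunicamycin and from diauxic cultures were -1.58 and -1.68. In limma over all 24 arrays these 3 differences had adjusted p of 0.27, 0.54 and 0.32. Without the 6 arrays of the other deletion strains, on which this spot followed the dye, they had 0.0010, 0.0063 and 0.0020. For *ARC1* the ratio with chlorpromazine was lower than that with H2O2 (difference -1.70), and that with H2O2 was higher than that in diauxic cultures (difference 1.76). The limma adjusted p was 0.00033 and 0.00025 over all 24 arrays, and 0.0018 and 0.0015 over 18. These tests take arrays as replicates, and the pairs of conditions were picked for their opposite signs.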

How the results depend on the processing

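The single-gene values followed were the 64 that were past 1.5-fold on the mean with the same sign on both arrays. Leaving out 1 array, or the dim genes, could not turn the sign of such a value. Of 511 re-computed values of these, 0 had the opposite sign. Of 216 re-computed medians of the cytosolic or mitochondrial genes 15 did, all of them of medians reported at 0.051 or less in size. The difference between the cytosolic and mitochondrial medians moved more. With the authors' ratios it was -0.62 for the wild-type response (-0.46 as reported), -0.60 for *med20Δ* against wild-type with rapamycin (-0.32), -0.019 with chlorpromazine (0.14) and -0.90 with H2O2 (-0.62). With subtracted background it was -0.51 with rapamycin, -0.85 with H2O2 and 0.24 in *med31Δ* (0.08). Over members above the unnamed spots it was -0.16 in *cycCΔ* (0.01). Leaving out 1 array at a time gave -0.43 to -0.13 with rapamycin, -0.039 to 0.39 with chlorpromazine, -0.80 to -0.43 with H2O2 and -0.23 to 0.037 with tunicamycin, where the sign turned without the first array.

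Counts of members called depended on the rule. In *med20Δ* with rapamycin the count was 5, against 9 with subtracted background, 16 at 1.5-fold and 4 to 8 with 1 array left out. In wild-type it was 5, against 8 with subtracted background, 8 with median centring, 9 with the authors' ratios, 9 at 1.5-fold and 3 at 2-fold on both arrays. Over the 10 comparisons of a deletion strain with wild-type it was 3, against 8 with subtracted background, 9 with the authors' ratios, 16 at 1.5-fold and 7 to 11 with 1 array left out. limma called 17 members in *med20Δ*, 14 in wild-type and 18 over the 10 comparisons, and with the replicate number as a block 17, 14 and 21. That number is only shared as a label, with nothing in the sources to pair arrays of different comparisons. The cause of these moves was not tested.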
